A study of Mus musculus with 12 samples.

Results

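MHC class II presentation genes were measured in hippocampal microglia, the resident macrophages of the brain, of male Balbc mice on postnatal day 28. The set of 10 genes was given by name: the chains H2-Aa, H2-Ab1, H2-Ea-ps and H2-Eb1, the peptide editors H2-DMa, H2-DMb1 and H2-Ob, the invariant chain Cd74, the transactivator Ciita and the protease Ctss. Of these 10, 9 were found among the 545 immune genes of the panel, and H2-DMb1 was not analysed here. BDS mice had undergone brief daily separation, 15 min each day away from the mother between postnatal days 1 and 21, and control mice had not. There were 6 BDS and 6 control samples, all males of the same strain and age, and no 2 of them shared a litter, per the submitters' design text. The cells had been enriched on a Percoll gradient and sorted, with sort markers that are not given in the sources used here. From 2 ng of RNA, cDNA had been made, preamplified with 5 PCR rounds and hybridised to an nCounter panel, which counts a fluorescent barcode for each transcript without sequencing.

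Class II molecules are pairs of an alpha and a beta chain that show peptides from endocytosed protein to CD4 T cells. The mouse makes I-A molecules from H2-Aa and H2-Ab1 and I-E molecules from H2-Ea and H2-Eb1. The invariant chain, encoded by Cd74, escorts newly made pairs to the endosome, where cathepsin S, encoded by Ctss, trims it down to a short peptide that still fills the groove. The DM molecule, a pair of H2-DMa and an H2-DMb chain, exchanges that peptide for others, and the DO molecule, of which H2-Ob is the beta chain, restrains DM. Ciita is the coactivator that switches the pathway on, and interferon-gamma is its best known inducer. Resting microglia are known for low class II expression, which rises under inflammation.

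Ciita does not bind DNA itself. It docks on factors that sit on a conserved promoter module with an X box, bound by RFX, and a Y box, bound by NF-Y. The promoter sequences of RefSeq (GRCm38.p6, the genome of C57BL/6J and not of Balbc) covered 250 bases before to 50 bases after the annotated start and held 6 of the 10 genes. A core of the X box, GNAAC, was searched 20 to 40 bases before a core of the Y box, TGATTGG, first base to first base, on either strand. The pair was found in 4 of the 6 genes, H2-Ob, H2-Aa, H2-Eb1 and H2-DMb1, against 0.569% of all 32851 promoters in the table. TGATTGG alone was found in 7.82% of them. The 4 windows are shown because they carry the module that these members share, including the 1 member with an unadjusted p under 0.05, H2-Ob. They are read on the strand of the gene, 5′ to 3′, with the 2 cores in capitals.
H2-Ob (chr17:34238806-34238864, plus strand): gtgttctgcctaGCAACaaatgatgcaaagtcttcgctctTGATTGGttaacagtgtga
H2-Aa (chr17:34287855-34287916, minus strand): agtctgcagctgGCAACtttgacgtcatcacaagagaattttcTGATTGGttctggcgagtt
H2-Eb1 (chr17:34305764-34305824, plus strand): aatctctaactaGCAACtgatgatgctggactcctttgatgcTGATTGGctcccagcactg
H2-DMb1 (chr17:34153085-34153146, plus strand): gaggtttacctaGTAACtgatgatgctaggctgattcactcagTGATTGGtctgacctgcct

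The Y core began at position -59 from the annotated start in H2-Ob, -50 in H2-Aa, -61 in H2-Eb1 and -63 in H2-DMb1. The X core lay 28 bases before it in H2-Ob, 30 in H2-Eb1 and 31 in both H2-Aa and H2-DMb1. The windows of H2-DMa, which has 2 annotated starts, and of Ctss held no such pair, which says only that these letters at this spacing are not in these windows. A letter match is a description and not a measured binding site.

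**Figure D1:**
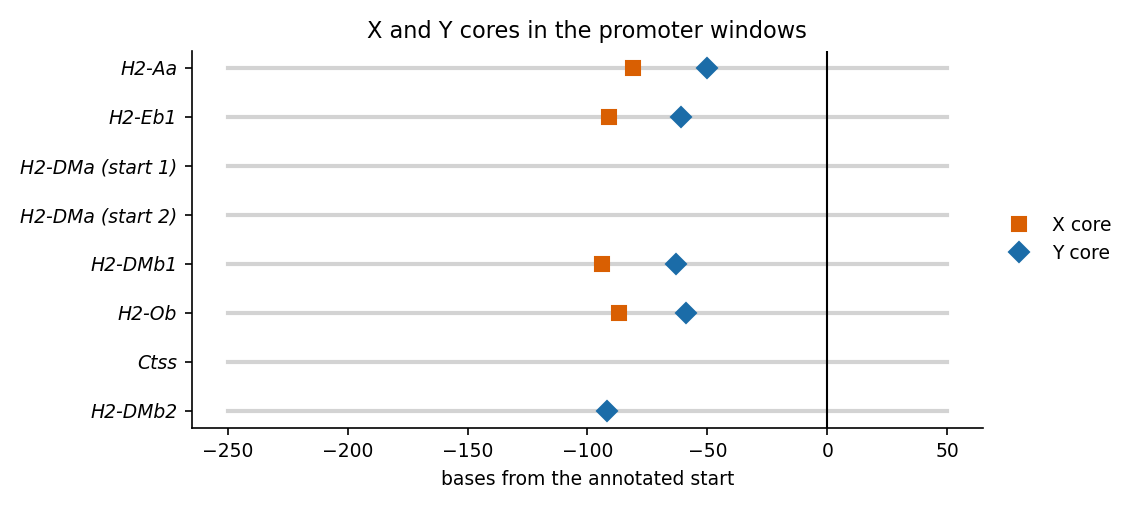
Positions of the X core and the Y core in the promoter windows of the 6 genes with a RefSeq promoter and of H2-DMb2, in bases from the annotated start. The pair sits at a like distance upstream of the start in 4 genes, the Y core between -63 and -50. H2-DMb2 holds a Y core at -92 without an X core 20 to 40 bases before it. X cores outside that spacing are not drawn.

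Total endogenous counts were 577135 to 1103445 in BDS samples and 827591 to 1341132 in control samples. Counts were scaled to 6 housekeeping genes (Alas1, Gapdh, Oaz1, Polr1b, Sdha and Tbp), and values below are normalized counts unless said otherwise. The scaling factor was lowest in BDS 21, BDS 25 and BDS 55 (0.609, 0.649 and 0.854), and lay between 0.875 and 1.47 in the other 9 samples. Results that rest on those 3 samples are therefore given with and without them. A gene was tested where at least 40% of samples (5 or more of 12) exceeded the average of the 8 negative control probes by over 2 SD, which left 357 genes, 7 of them members. All 5 microglial markers on the panel (Cx3cr1, Csf1r, Itgam, Runx1 and Tgfbr1) were above background in 12 of 12 samples, with a summed level of 158207 to 203224 in BDS and 161953 to 175948 in control. That sum rests mostly on Csf1r, which averaged 97734 in BDS and 84924 in control. The log2 fold change (BDS over control) was 0.20 for Csf1r. It was below 0 for the other 4: -0.11 for Cx3cr1, -0.13 for Itgam, -0.31 for Runx1 and -0.13 for Tgfbr1. None of the 5 had an unadjusted p under 0.05 (edgeR). These are bulk samples, in which fewer cells of a type and less RNA per cell cannot be told apart. Probes differ in efficiency, so levels of different genes are not set against each other.

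No member passed the adjusted threshold of 0.05 in the edgeR quasi-likelihood test, and neither did any other gene: 0% of the 357 genes were called, with 44 at an unadjusted p under 0.05. DESeq2 with the same scaling called 6 genes, none of them a member. At an unadjusted p under 0.05 there was 1 of the 7 members, H2-Ob, which was lower in BDS. That is 1 in 7 beside 12.3% of all genes tested in either direction, and 11.5% lower in BDS, so the share of members is near the background. Which member it was depended on the setting. With TMM scaling it was H2-Ea-ps (higher in BDS), and without BDS 25 alone there were 0. Without BDS 21, BDS 25 and BDS 55 it was H2-DMa (lower in BDS), whose 3 highest BDS values those samples held. The log2 fold change was below 0 for 3 of the 7 (H2-Ob, Cd74 and Ciita), against 66.1% of all genes, and above 0 for 4 (H2-Ea-ps, Ctss, H2-Ab1 and H2-DMa). Their median log2 fold change was 0.02, beside -0.10 over all genes, and -0.11 without BDS 21, BDS 25 and BDS 55, where the median of all genes was -0.09. The 6 BDS samples overlapped the control samples in all 7 members, while 1.12% of all genes, 4 of 357 and none a member, did not overlap (Cd82, Il21r, Ski and Tgfbr2, named here after their values were seen). The 7 tested members do not stand for all 10, since a gene near background reached the test only through samples in which it was high.

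**Figure D2:**
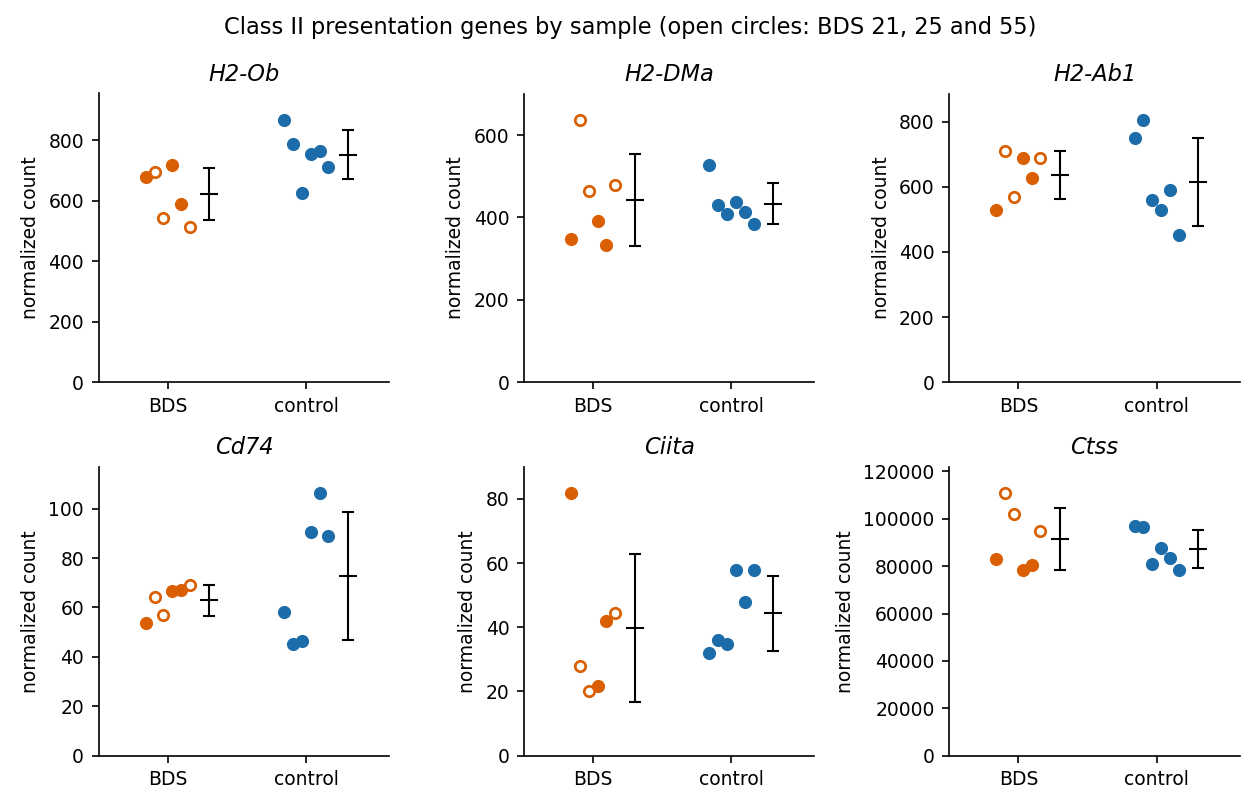
Normalized counts of 6 tested members in each sample, BDS left of control, on linear axes from 0, with mean ± SD (n = 6 per group) beside the points and open circles for BDS 21, BDS 25 and BDS 55. The 6 BDS samples sit below the control mean in H2-Ob and Cd74, the control samples of Cd74 spread over a wider range than the BDS samples, and the open circles are the 3 highest BDS values of H2-DMa and Ctss.

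Of the I-A chains, H2-Ab1, the beta chain, was measured well above background in every sample. It had a lowest value of 528, a median of 657 and a highest value of 711 in BDS samples, against 452, 575 and 806 in control samples. The BDS samples lay inside the control range. The means were 636 ± 74.2 in BDS and 615 ± 136 in control (SD, n = 6 each), a log2 fold change of 0.05 ± 0.14 (SE, edgeR, adjusted p = 0.84). Without BDS 21, BDS 25 and BDS 55 it was -0.00046, so the direction of H2-Ab1 is not settled.

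H2-Aa, the alpha chain that pairs with H2-Ab1, was near the negative control probes. Raw counts ran from 8 to 28, and averaged 17 in BDS and 16.5 in control. It was above the threshold in 4 of 12 samples, 1 BDS and 3 control, and so it was not tested. The authors' deposited table lists H2-Aa above background in 42% of samples. Normalized counts were 8.56, 19.4 and 29.6 (lowest, median and highest) in BDS, against 7.74, 15.8 and 19.4 in control. Scaling lifts a near-background count in a sample with a low factor: BDS 21 had 18 raw counts and 29.6 normalized ones. When the genes that the deposited table lists as present were tested instead, the log2 fold change of H2-Aa was 0.40 ± 0.29 (SE, edgeR, adjusted p = 0.53).

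The I-E chains were also at the limit of detection. H2-Eb1, the beta chain, was above the threshold in 4 of 12 samples, 1 BDS and 3 control, with 16.2 raw counts on average in BDS and 20.5 in control, and was not tested. Its normalized counts were 11.7, 18.4 and 23.6 (lowest, median and highest) in BDS, against 13.5, 17.3 and 24.9 in control. The groups overlapped, with 1 BDS sample, BDS 55, below the lowest control. The authors' deposited table lists H2-Eb1 above background in 50% of samples. H2-Ea-ps is annotated by RefSeq, under the name H2-Ea, as a transcribed pseudogene in C57BL/6J. In Balbc mice, which carry another MHC haplotype, the gene is known to make a functional alpha chain. It was above the threshold in 7 of 12 samples, 4 BDS and 3 control, and was tested.

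H2-Ea-ps had normalized counts of 16.4, 20.7 and 30.8 (lowest, median and highest) in BDS, against 11.0, 15.6 and 22.9 in control. Of the 6 BDS samples, 2 lay above the highest control and 6 above the control mean. The log2 fold change was 0.41 ± 0.20 (SE, edgeR, unadjusted p = 0.0589, adjusted p = 0.38). Before scaling, its raw counts averaged 19.5 in BDS and 18.2 in control. With the mean of the negative probes subtracted the log2 fold change was 0.30 with an unadjusted p of 0.53 (limma). The authors' deposited table gives H2-Ea-ps a fold of 1.35 and a p of 0.0547.

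**Figure D3:**
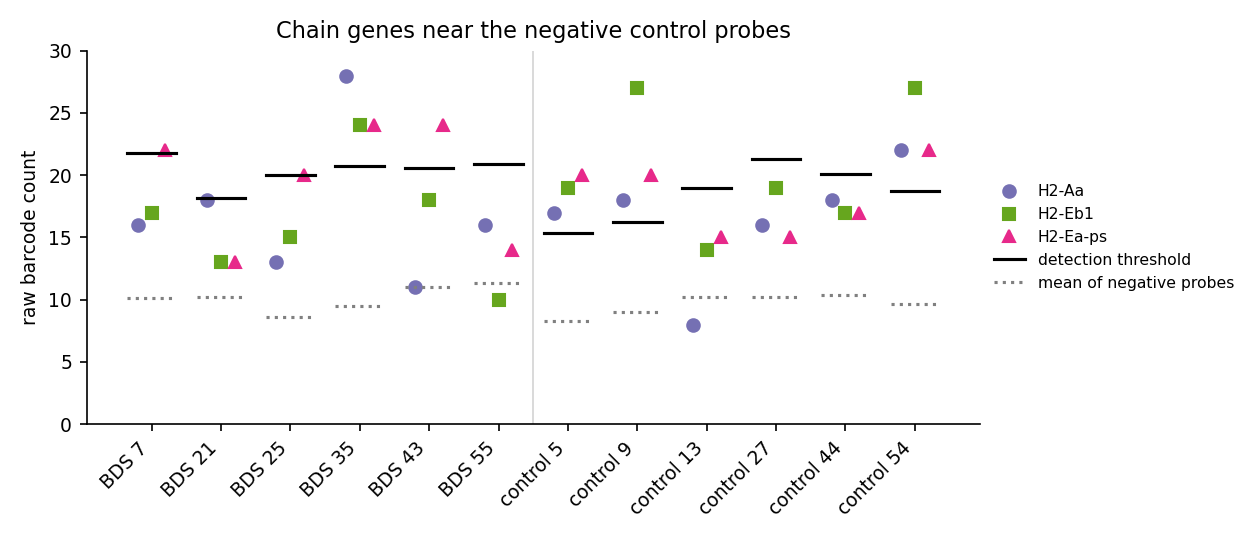
Raw barcode counts of H2-Aa, H2-Eb1 and H2-Ea-ps in each of the 12 samples, BDS left of control, with the mean of the 8 negative control probes (dotted) and the detection threshold of that sample (solid bar). The points lie around the solid bars, above them in 4 of 12 samples for H2-Aa and H2-Eb1 and in 7 of 12 for H2-Ea-ps.

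The invariant chain Cd74 differed between the groups in spread more than in level. It had 53.6, 65.4 and 69.1 normalized counts (lowest, median and highest) in BDS, against 45.3, 73.7 and 106 in control. The control samples fell into a lower set (control 5, 9 and 13, at 45.3 to 58.3) and a higher set (control 27, 44 and 54, at 89.1 to 106), with all 6 BDS samples between 53.6 and 69.1. The means were 62.9 ± 6.20 in BDS and 72.7 ± 26.0 in control (SD, n = 6 each), with a log2 fold change of -0.21 ± 0.21 (SE, edgeR, adjusted p = 0.66). The coefficient of variation was 9.85% in BDS and 35.7% in control.

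The count ratio of Cd74 to H2-Ab1, which does not depend on the scaling of a sample, showed the same contrast of spread. It ran from 0.0901 to 0.107 in BDS, with a mean of 0.0993 ± 0.00559, and from 0.0561 to 0.197 in control, with a mean of 0.128 ± 0.0618 (SD, n = 6 each). Every BDS ratio lay in the gap between the lower control samples, up to 0.0829 (control 5, 9 and 13), and the higher ones, from 0.172 (control 27, 44 and 54). The mean level did not separate the groups (log2 difference -0.20, exact permutation test over 924 rearrangements, two-sided p = 0.56). The coefficient of variation was 5.63% in BDS and 48.4% in control. Counting error alone would give about 14.4% in BDS and 12.5% in control. The BDS spread therefore lies below counting error and cannot be read as tightness among the animals. With the negative probe mean subtracted, the coefficients of variation were 10.7% in BDS and 53.7% in control. This difference in spread was picked after the values were seen and was not tested.

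Of the peptide editors, H2-Ob, the DO beta chain, which restrains DM in B cells and dendritic cells, was the member with the smallest p. It had 515, 634 and 717 normalized counts (lowest, median and highest) in BDS, against 628, 760 and 869 in control. All 6 BDS samples lay below the control mean and 3 lay below the lowest control. The means were 623 ± 85.8 in BDS and 753 ± 80.3 in control (SD, n = 6 each), a log2 fold change of -0.27 ± 0.11 (SE, edgeR, unadjusted p = 0.025, adjusted p = 0.34). The authors' deposited table gives H2-Ob a fold of 0.84 and an unadjusted p of 0.0309. The difference was negative in all 25 alternative fits, from -0.32 to -0.18. It was -0.18 with TMM scaling (unadjusted p = 0.10) and -0.19 without BDS 21, BDS 25 and BDS 55 (unadjusted p = 0.13), beside medians of all genes of -0.01 and -0.09. Leaving out BDS 25, BDS 55 or control 5 alone also took the unadjusted p above 0.05, to 0.0581, 0.0561 and 0.0646.

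H2-DMa, the alpha chain of DM, did not separate the groups as a whole. It had 333, 427 and 637 normalized counts (lowest, median and highest) in BDS, against 384, 422 and 527 in control. The means were 442 ± 112 in BDS and 434 ± 49.6 in control (SD, n = 6 each), with a log2 fold change of 0.02 ± 0.15 (SE, edgeR, adjusted p = 0.94). The 3 BDS samples with the lowest scaling factors carried the high values: BDS 21 had 637, BDS 55 had 479 and BDS 25 had 464, while BDS 7, BDS 35 and BDS 43 had 349, 391 and 333. Without the first 3 the log2 fold change was -0.28 (edgeR, unadjusted p = 0.0383, adjusted p = 0.77), so the direction depends on them. Leaving out the highest values of 1 group lowers its mean by construction, so this p-value is no support for a fall in BDS.

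H2-Ob and H2-DMa moved apart in those 3 samples. The count ratio of H2-Ob to H2-DMa was 1.09, 1.17 and 1.08 in BDS 21, BDS 25 and BDS 55, against 1.77 to 1.95 in the other 3 BDS samples and 1.53 to 1.86 in the 6 control samples. This ratio is free of the scaling. It was chosen after the values were seen, and its relation to the low housekeeping counts of the same samples was not tested. H2-DMb2, a second DM beta chain gene that is not among the 10, stood in for H2-DMb1 as an alternative added after seeing the data. It had 27.4 ± 6.20 normalized counts in BDS and 28.3 ± 7.58 in control (SD, n = 6 each). H2-DMb2 was near background, with raw counts of 18 to 57 and a median of 2.4 times the negative probe mean. Its ratio to H2-DMa is limited by that. The count ratio of H2-DMa to H2-DMb2 was 16.3 ± 2.52 in BDS and 16.3 ± 4.58 in control (SD, n = 6 each, log2 difference 0.04, exact permutation test, two-sided p = 0.85).

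Ctss, the protease that trims the invariant chain, was above background in 12 of 12 samples. It had 78544, 88864 and 110755 normalized counts (lowest, median and highest) in BDS, against 78178, 85361 and 97000 in control. The means were 91602 ± 13063 in BDS and 87173 ± 7990 in control (SD, n = 6 each). The log2 fold change was 0.07 ± 0.096 (SE, edgeR, adjusted p = 0.71). The 3 highest BDS values were again those of BDS 21, BDS 25 and BDS 55, and without them the log2 fold change was -0.11 (unadjusted p = 0.17).

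Ciita, the transactivator, was above the threshold in 4 of 6 BDS and 6 of 6 control samples. The authors' deposited table lists Ciita above background in 100% of samples. It had 20.0, 35.0 and 81.7 normalized counts (lowest, median and highest) in BDS, against 32.0, 41.9 and 57.8 in control. In BDS, 3 samples lay below the lowest control and 1, BDS 7, above the highest. The means were 39.6 ± 23.01 in BDS and 44.4 ± 11.7 in control (SD, n = 6 each), with a log2 fold change of -0.14 ± 0.31 (SE, edgeR, adjusted p = 0.82). Without BDS 21, BDS 25 and BDS 55 it was 0.12, and with background subtracted it was -0.73 (limma, unadjusted p = 0.18). Without BDS 7 alone it was -0.50, also short of the threshold.

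**Figure D4:**
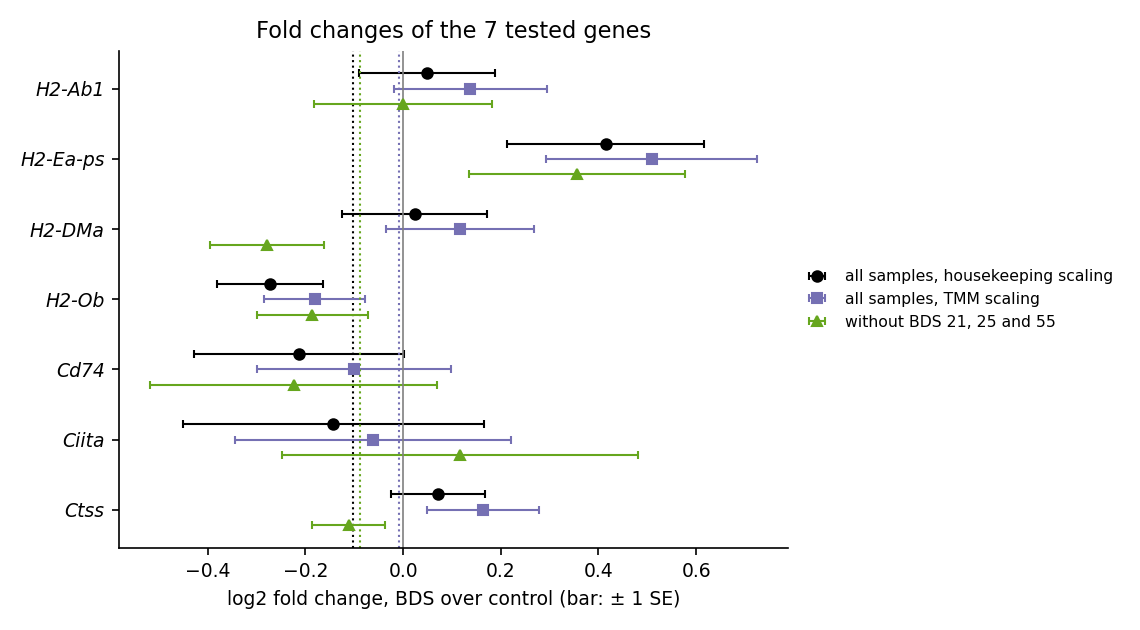
Log2 fold changes (BDS over control) of the 7 tested members with bars of ± 1 SE, for all samples with housekeeping scaling, all samples with TMM scaling, and without BDS 21, BDS 25 and BDS 55; dotted lines give the median of all genes in each fit. H2-Ob and Cd74 stay below 0 and H2-Ea-ps stays above 0 in all 3 fits, while H2-DMa, H2-Ab1, Ctss and Ciita change side without the 3 samples.

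The genes around the pathway were read from lists chosen with earlier results of these data known. Of the class II regulators and the interferon-gamma route, 12 of 19 listed genes were on the panel and 11 were tested, 8 below 0, with a median log2 fold change of -0.04 beside -0.10 for all genes. Ifng itself was above background in 0 of 12 samples. Ifngr1, a chain of the interferon-gamma receptor, Tgfb1, a cytokine that dampens class II expression, and Il10ra, a chain of the interleukin-10 receptor, had log2 fold changes of 0.01, 0.08 and -0.13. Their adjusted p-values were 0.94, 0.72 and 0.48. With TMM scaling 3 of the 11 genes were below 0, with a median of 0.05. Without BDS 21, BDS 25 and BDS 55, 9 of the 11 were, with a median of -0.13, so the balance of this list depends on the scaling and on those samples.

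Co-stimulatory ligands act beside class II at the T cell contact. Of 8 on the panel, 5 were tested, and all 5 had log2 fold changes below 0, with a median of -0.17, beside 66.1% of all genes below 0 and a median of -0.10. All 5 were also below 0 with TMM scaling and without the 3 samples (medians -0.08 and -0.14, beside -0.01 and -0.09 for all genes). Icosl, the ligand of Icos, was the 1 gene of the 5 at an unadjusted p under 0.05, lower in BDS, as were 11.5% of all genes at that limit. It averaged 1509 ± 129 in BDS and 1797 ± 221 in control (SD, n = 6 each, log2 fold change -0.25 ± 0.10 SE, edgeR, unadjusted p = 0.0192, adjusted p = 0.28). Without BDS 21, BDS 25 and BDS 55 it was -0.17 (edgeR, unadjusted p = 0.14). With TMM scaling it was -0.15 (edgeR, unadjusted p = 0.11). The unadjusted p of Icosl was 0.0847 with total count scaling (edgeR) and 0.0877 with DESeq2 and its own size factors. In each of these alternatives Icosl stayed lower in BDS, with an unadjusted p above 0.05. Cd86, a ligand of Cd28, averaged 4525 ± 1193 in BDS and 5088 ± 905 in control (SD, n = 6 each). Cd83, which is known to stabilise class II at the cell surface, averaged 1150 ± 144 in BDS and 1296 ± 115 in control (SD, n = 6 each). The adjusted p-values of Cd86 and Cd83 were 0.64 and 0.43.

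MHC class I presentation, the parallel route to CD8 T cells, had 9 of 13 listed genes on the panel and 7 tested, 3 below 0 and 4 above, with a median of 0.04 and none at an unadjusted p under 0.05. B2m, the light chain of class I, averaged 7271 ± 1231 in BDS and 7014 ± 431 in control (SD, n = 6 each, adjusted p = 0.81). H2-K1, a class I heavy chain, ran from 1085 to 1954 in BDS and from 1268 to 6252 in control, and Psmb7, a proteasome subunit, averaged 962 ± 158 in BDS and 1027 ± 126 in control. Without the 3 samples 6 of the 7 were below 0, and with TMM scaling 2 of 7 were. Cd4, the receptor that binds class II, was near background, above it in 6 of 12 samples. Of the other endolysosomal proteases Ctsc, which activates granule proteases, averaged 1661 ± 423 in BDS and 1984 ± 139 in control (SD, n = 6 each, log2 fold change -0.26, edgeR, adjusted p = 0.43). Without BDS 21, BDS 25 and BDS 55 its log2 fold change was 0.04, so its direction depends on them. Ctsg was not tested.

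Markers of other class II positive cells were measured in the same samples. Of 6 B cell markers on the panel, Pax5 and Cr2 were above background in 0 of 12 samples and Ms4a1 in 2, while Cd79a and Cd79b were tested. Their summed level was 164 to 355 in BDS and 181 to 282 in control. Of 5 dendritic cell markers, Itgax and Batf3 were tested, and the sum was 285 to 465 in BDS and 322 to 380 in control. Of 4 markers of blood monocytes and border macrophages, Cd163 and Msr1 were above background in 0 of 12 samples. Ccr2, a chemokine receptor of monocytes, was lower in BDS at an unadjusted p under 0.05, at 292 ± 72.6 in BDS and 377 ± 76.4 in control (SD, n = 6 each, log2 fold change -0.36 ± 0.17 SE, edgeR, adjusted p = 0.38). Without BDS 21, BDS 25 and BDS 55 it was -0.16 (edgeR, unadjusted p = 0.44). With TMM scaling it was -0.27 (edgeR, unadjusted p = 0.0906). The unadjusted p of Ccr2 was 0.12 with total count scaling (edgeR) and 0.0936 with DESeq2 and its own size factors. Ccr2 was thus lower in BDS in each of these alternatives, but at an unadjusted p above 0.05. The list sum was 251 to 454 in BDS and 288 to 496 in control. The part of Ccr2 positive cells in the difference of H2-Ob was not tested. Cd3d and Cd3e, which define T cells, were above background in 0 of 12 samples, and the T cell sum was 63.8 to 108 in BDS and 52.4 to 86.9 in control. Of the 7 genes in that sum only Cd4 was tested, above background in 6 of 12 samples, so the sum is mostly background. Scaling lifts such counts in samples with a low factor, so the T cell sum is not read as a difference between the groups. The sum of the NK cell markers was 77.2 to 126 in BDS and 75.7 to 343 in control.

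Whether the pathway varied as a unit over animals was examined with 6 correlations with Cd74 over the 12 samples, on log2(normalized count + 1), with p-values from 100000 permutations and Benjamini-Hochberg adjustment. None passed. Pearson's r was -0.42 for H2-Ab1 (Spearman's rho -0.27, adjusted permutation p = 0.53 and 0.61), -0.42 for H2-Ea-ps, 0.32 for Ciita, -0.28 for Ctss, 0.14 for H2-Ob and -0.07 for H2-DMa. Without the 2 samples farthest from the median of Cd74, r was -0.29 for H2-Ab1 and 0.30 for Ciita. Within groups of 6, H2-Ab1 had an r with Cd74 of 0.88 in BDS (rho 0.60, exact permutation p = 0.0639, adjusted 0.38) and -0.61 in control (rho -0.49, exact permutation p = 0.21). The difference between those was not tested. Ciita had an r with Cd74 of -0.30 in BDS and 0.84 in control (rho 0.54, exact permutation p = 0.10, adjusted 0.60), and the control values rest on the 2 sets of 3 control samples named above. The 5 tested genes most like Cd74 over the 12 samples, by Pearson's r, were Cd160 (0.91), Cd40lg (0.86), C2 (0.81), Ccr9 (0.79) and Socs1 (0.78), a description over samples that share a scaling.

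The normalized levels of several members followed the scaling factor itself, which stands in their denominator, so a relation arises by construction wherever a gene does not follow the housekeeping genes. The permutation p-values below take no account of that shared term, so they cannot tell such a built-in relation from another one. Over the 12 samples and 7 relations, added after seeing the data, r with the factor was -0.81 for Ctss (rho -0.68, adjusted permutation p = 0.0144 and 0.0407). It was -0.75 for H2-DMa (rho -0.72, adjusted permutation p = 0.024 and 0.0372), -0.68 for H2-Ea-ps (rho -0.61, adjusted permutation p = 0.033 and 0.0688) and 0.66 for Ciita (rho 0.76, adjusted permutation p = 0.0354 and 0.0372). It was -0.48 for H2-Ab1, 0.34 for Cd74 and 0.27 for H2-Ob (adjusted permutation p = 0.163, 0.327 and 0.39). Without the 2 samples farthest from the median factor, r was -0.56 for Ctss, -0.59 for H2-DMa, -0.52 for H2-Ea-ps and 0.45 for Ciita. For Ctss it was -0.94 within BDS (exact permutation p = 0.0167) and -0.56 within control (exact permutation p = 0.26). For H2-DMa it was -0.92 within BDS (exact permutation p = 0.00833) and -0.67 within control (exact permutation p = 0.10). Ctss and H2-DMa had an r of 0.87 with each other.

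**Figure D5:**
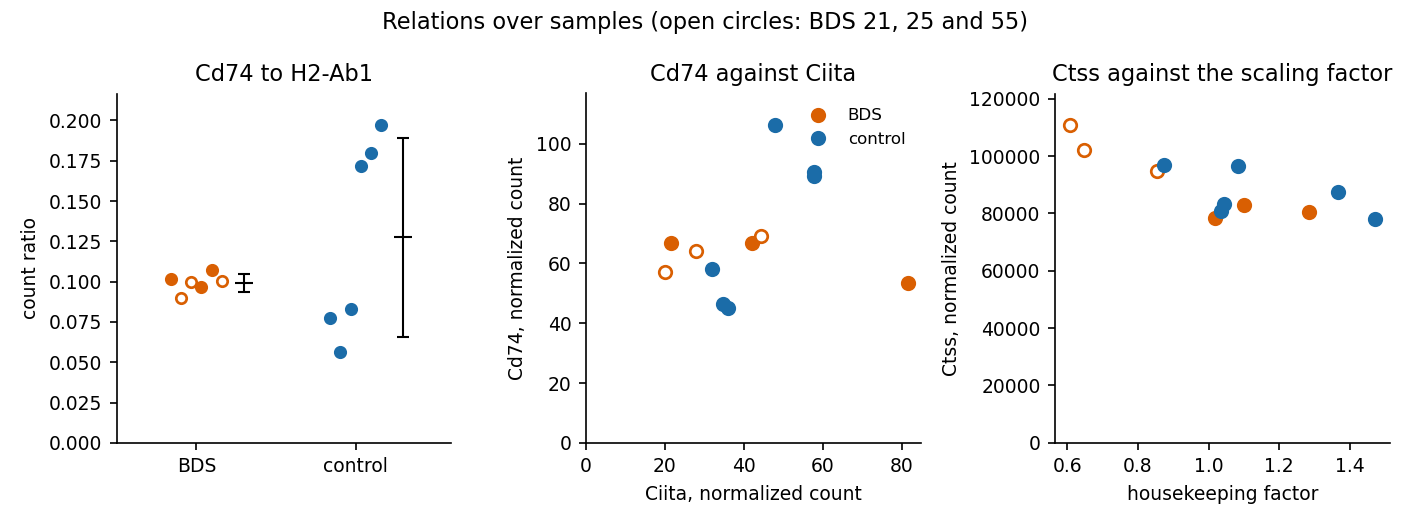
Left, the ratio of raw counts of Cd74 to H2-Ab1 in each sample with mean ± SD (n = 6 per group). Middle, Cd74 against Ciita, and right, Ctss against the housekeeping factor, with Cd74, Ciita and Ctss in normalized counts. All panels have 1 point per sample and open circles for BDS 21, BDS 25 and BDS 55. The BDS ratios lie between 0.0901 and 0.107 while the control ratios split around them, and the highest Ctss values belong to the samples with the lowest factors.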

How the data were processed

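The authors deposited raw barcode counts per probe (whole numbers, not normalized) and a second table of rounded values, normalized with positive control and housekeeping probes, used here as scores. Per the file headers, that deposited table also gives group means, the percent of samples above background, an unadjusted p-value per gene and a fold, the ratio of BDS to control on a linear scale. The barcode software was not stated there. For each sample the geometric mean of the 6 housekeeping counts, relative to its geometric mean over samples, was the scaling factor of the raw counts, which were tested with edgeR 4.0.16 (quasi-likelihood, R 4.3.3, no covariates), with Benjamini-Hochberg adjustment over 357 genes and a threshold of 0.05. Ratios were compared with exact permutation tests, whose smallest p here is 0.00216. Alternatives used limma 3.58.1 (pseudocounts 1 and 10), DESeq2 1.42.0, other scalings and filters. The genes described, the lists and the 3 samples left out were chosen with earlier results of these data known. Named were all members found, list genes at an unadjusted p under 0.05, the 3 of highest count per list, the 5 genes most like Cd74 and the housekeeping genes; some genes that this rule names are not reported here. H2-DMb1 and the ratio of H2-Aa to H2-Ab1 were not run, since the gene is not among these probes and H2-Aa was below the filter. All 10 names were found in the RefSeq gene table, 1 by a synonym.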

Additional observations from a re-analysis of the deposited data

How the results depend on the processing

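None of the 7 tested members passed the adjusted threshold in the 13 alternatives or in the 12 fits with 1 sample left out. Not every member had an adjusted p in each alternative. DESeq2 with housekeeping factors gave none for H2-Ea-ps, Cd74 and Ciita, which it filtered out. The fit of genes above background in all samples held only 5 members. The median log2 fold change of the members ranged from -0.11 to 0.12, so its sign depended on the setting. Each move was smaller than the SD of the member median over single samples (0.136 in each group). That SD is a looser limit than the error of a difference between group means. The number at an unadjusted p under 0.05 was 2 with 5 housekeeping genes, with limma at pseudocounts of 1 and 10 and on the deposited values (H2-Ea-ps beside H2-Ob), and 0 with DESeq2 and its own size factors; it ran from 0 (without BDS 25) to 1 with 1 sample left out. DESeq2 with housekeeping factors called 6 genes of the panel, none a member. With 1 sample left out 0 to 4 were called, the 4 without BDS 7 being Il13ra1, Ptprc, Smad5 and Tlr1, named after their values were seen. Genes at an unadjusted p under 0.05 numbered 44, with 41 lower and 3 higher in BDS. They were 14 lower and 18 higher with TMM, 13 and 19 with total counts, 14 and 13 with DESeq2's own factors (27 genes) and 20 and 0 without BDS 21, BDS 25 and BDS 55, and 26 to 96 with 1 sample left out.

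Without those 3 samples the log2 fold change was -0.00046 for H2-Ab1, -0.28 for H2-DMa, -0.11 for Ctss and 0.12 for Ciita, and the log2 ratio of H2-DMa to H2-DMb2 was -0.00037. That of H2-DMa was -0.00093 and -0.00037 with limma at pseudocounts of 1 and 10. With 1 sample left out H2-Ab1 ran from -0.026 to 0.142 (below 0 without control 54) and H2-DMa from -0.107 to 0.0943 (below 0 without BDS 21, BDS 55 or control 54). The ratio of H2-DMa to H2-DMb2 then ran from -0.10 to 0.14, and the r of H2-DMa with Cd74 from -0.177 to 0.00803. The r of H2-Ob with Cd74 was -0.027 with total count scaling. Within BDS the r with Cd74 was 0.88 for H2-Ab1, 0.18 for H2-DMa, -0.17 for H2-Ob and -0.30 for Ciita. The cause of these shifts was not tested. No paired analysis was possible because the groups share no replicate number. Counts near the negative probes limit H2-Aa, H2-Eb1, H2-Ea-ps, Ciita and H2-DMb2.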

Other observations

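Some genes outside the pathway varied with a member across the 12 samples more closely than other members did. They were picked after their values were seen, as descriptions over samples that share a scaling. Ctss went with Tgfb1 (Pearson's r 0.95, and 0.95 with total count scaling) and with C1qb, a chain of the complement component C1q (0.94). Ciita went with Bcap31, a chaperone of the endoplasmic reticulum (0.94, and 0.92 with total count scaling), which had 2166 ± 464 normalized counts in BDS and 2364 ± 253 in control (SD, n = 6 each). H2-Ob went with Ptafr, the receptor of platelet-activating factor (0.86), and with Cd83 (0.86). H2-Ab1 was closest to Ifngr1 (0.75). Cd40lg, among the genes most like Cd74, is close to background, above it in 7 of 12 samples.

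No member and no sample sum lay far enough from its group to be marked: of 22 groups of 6 values examined, 0 held a sample far from the other 5, where chance would give about 1 in 20.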
